A study of Mus musculus with 18 samples.

Results

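*Nnt* encodes nicotinamide nucleotide transhydrogenase, and it was examined here across the ileum of 18 mice in 3 groups. All probes that carry its name on the array were used, which are 3 of 56605 probes and 1 of 37074 gene names. All 3 passed the filter on dim probes, as did 32726 probes for 21542 gene names in all. *Nnt* was selected for its higher signal in the mice labelled iPgc1α-/- than in floxed mice on a Western diet (WD), so that difference is described without a test. The enzyme sits in the inner mitochondrial membrane, where it uses the proton gradient to move hydride from NADH to NADP+ and so supplies NADPH to the matrix. Matrix NADPH feeds glutathione and thioredoxin reduction as well as biosynthesis. The gene is widely known because the C57BL/6J substrain carries a deletion of several internal exons that other C57BL/6 substrains lack, and *Nnt* is therefore often read as a marker of substrain background.

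The study asked what intestinal Pgc1α does during WD feeding, and 1 array was run for each mouse. Floxed (Pgc1α fl/fl) mice received chow (6 mice) or WD (6 mice), and a further 6 mice, iPgc1α-/-, received WD. The labels write the genotypes as iPGC1afl/fl and iPGC1a-/- and the diets as CHOW and HFD. The mice of every group carried floxed *Ppargc1a* alleles, and the iPgc1α-/- mice also carried Cre driven by the Villin promoter, which acts in the intestinal epithelium. Per the methods, mice were male, entered the diets at 8 weeks of age and stayed on them for 8 weeks, WD held 42% of kcal as fat with 0.2% cholesterol, and all were killed after an overnight fast at Zeitgeber Time 3. Every strain is described there as being on a C57BL6/J background. The iPgc1α-/- and floxed mice are described as littermates, bred from Pgc1α fl/fl parents of which the males also carried the Cre. Which of the 18 mice shared a litter and the *Nnt* alleles of the animals and of the lines crossed are not given in the sources used here. The samples were cells released from the ileum by a chelating buffer rather than whole ileum.

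Each array had between 56.3% and 62.3% of its probes well above background, the median signal stood at 39 to 61 intensity units, local background at 17 to 23, and no array had a saturated spot. Each of 3 slides held 2 arrays of every group. All 7 enterocyte markers (*Vil1*, *Epcam*, *Cdh1*, *Krt20*, *Fabp6*, *Slc10a2* and *Apoa1*) were measured, with group means of 11.96 to 17.14 on the log2 scale. Markers of other cells passed the filter as well, with group means that lay far apart within a list. They ran from 6.45 (*Itgax*) to 15.19 (*Lyz2*) for myeloid cells and from 6.96 (*Cd8a*) to 14.38 (*Gzma*) for T cells. For smooth muscle they ran from 5.32 (*Des*) to 12.53 (*Acta2*), and for stroma and vessel from 5.42 to 6.08. Levels of different probes are not compared, so these means do not give the share of a cell type. *Ppargc1a*, the gene targeted by the deletion, showed no fall in the iPgc1α-/- labelled arrays. Its brighter probe ranged from 11.26 to 11.44 in floxed mice on WD and from 11.36 to 12.01 in the arrays labelled iPgc1α-/-, a log2 difference of 0.30 (standard error 0.16, limma, Benjamini-Hochberg adjusted p = 0.569). The paper describes a deletion of only part of the exons, and whether that probe lies in them was not determined. Every direction by genotype below is therefore one between arrays as labelled.

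The 3 *Nnt* probes lie on the minus strand of chromosome 13 and are given with the mm9 coordinates of the array files. They are 60 bases long and are shown because they report on different stretches of the gene. The probe nearest the start of the transcript, called the 5′ probe here, lies at chr13:120193406-120193465 and begins at base 205 of the RefSeq transcript NM_008710. It has a GC content of 45% and reads without a stop codon in 2 of its 3 forward frames. The islet cDNA probe lies 50.8 kb further along the gene, at chr13:120142585-120142644. It was designed on a cloned cDNA from pancreas islet, AK050478, is not assigned to NM_008710 in the array annotation, and has a GC content of 35% with 0 open forward frames. The 3′ probe lies 69.1 kb from the 5′ probe, at chr13:120124335-120124394, and begins at base 4091 of NM_008710. The 5′ probe is printed whole, and of the other probes the last 30 bases are printed, with the hexamer AATAAA in capitals.
5′ probe: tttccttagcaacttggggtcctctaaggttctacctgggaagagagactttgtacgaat
islet cDNA probe: attttcatatttggtgatgatattaaataa
3′ probe: atctgagtAATAAAtgagttcataaaagtg
The hexamer AATAAA is the usual polyadenylation signal. It was searched on the printed strand and is present in 5529 of the 56605 probes (9.77%), so its presence in the 3′ probe is a description and not a mapped cleavage site.

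All 3 probe sequences have coordinates on mm9, which is an assembly of C57BL/6J. None of them therefore lies within the exons that C57BL/6J lacks, and no probe under the name *Nnt* reads the presence or absence of those exons directly. RefSeq's gene table for GRCm38.p6, also a C57BL/6J assembly, lists 1 transcript for *Nnt*, NM_001308506, and not NM_008710. Whether each probe lies in coding or untranslated sequence was not determined, because no mm9 annotation was used here. A further probe, A_52_P593890, is described as a transhydrogenase but carries an Ensembl transcript in place of the gene name. It starts at base 1326 of that transcript, and the array files place 15 of its 60 bases on mm9, at chr13:120182279-120182293, between the 5′ and the islet cDNA probe. On 0 of 18 arrays did it stand well above background, in any group, with intensities of 18.5 to 31.5 over 16 to 22 units, and it was not counted as a member.

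The 3′ probe split the 18 arrays into 2 sets. Its log2 normalized signals were 9.71, 10.02, 9.55, 9.94, 9.93 and 9.97 in the 6 floxed mice on chow. In the 6 floxed mice on WD they were 10.07, 9.76, 9.68, 10.14, 10.26 and 9.90. The 6 iPgc1α-/- labelled arrays read 11.36, 11.44, 11.41, 11.60, 11.55 and 11.32. Every array labelled iPgc1α-/- thus lay above every floxed array, while the floxed mice on chow and on WD overlapped. Group means in that order came to 9.85 ± 0.18, 9.97 ± 0.23 and 11.45 ± 0.11 (SD over 6 mice). The difference between the labelled genotypes on WD was 1.48 on the log2 scale (standard error 0.10, with no allowance for the selection of *Nnt*), which is 2.79-fold. In these bulk samples a change in the share of a cell type and a change of RNA per cell cannot be told apart.

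The same split stood in the unnormalized intensities of the 3′ probe. They ran from 654.5 to 1236 units in floxed mice on chow, from 640 to 1422 in floxed mice on WD and from 2235 to 4373 in the arrays labelled iPgc1α-/-. The local background around the spot was 17 to 23 units on all 18 arrays.

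The 5′ probe was dimmer and moved less. It read 6.64, 6.40, 6.65, 6.24, 6.44 and 6.14 in floxed mice on chow, and 6.48, 6.58, 6.54, 6.72, 6.43 and 6.66 in floxed mice on WD. The arrays labelled iPgc1α-/- read 7.23, 7.16, 7.45, 7.10, 7.15 and 6.98. Again all 6 lay above the 12 floxed arrays, with means of 6.42 ± 0.21, 6.57 ± 0.11 and 7.18 ± 0.16 (SD over 6 mice). The difference between the labelled genotypes on WD was 0.61 (standard error 0.10), or 1.53-fold. In unnormalized intensities, 75 to 120 units in floxed mice on WD overlapped with 111.5 to 195 units in the arrays labelled iPgc1α-/-.

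The islet cDNA probe did not separate the groups. Its signals were 5.70, 5.44, 5.88, 5.59, 5.89 and 5.32 in floxed mice on chow. They were 5.78, 5.70, 5.76, 5.93, 5.67 and 5.70 in floxed mice on WD, and 5.86, 5.76, 5.81, 5.86, 5.96 and 5.66 in the arrays labelled iPgc1α-/-. The 3 groups overlapped at means of 5.64 ± 0.23, 5.76 ± 0.09 and 5.82 ± 0.10 (SD, n = 6 each). The difference between the labelled genotypes was 0.06 (standard error 0.09). This probe was the closest to background, at 42 to 81 units over 17 to 23, although it passed as well above background on all 18 arrays.

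**Figure D1:**
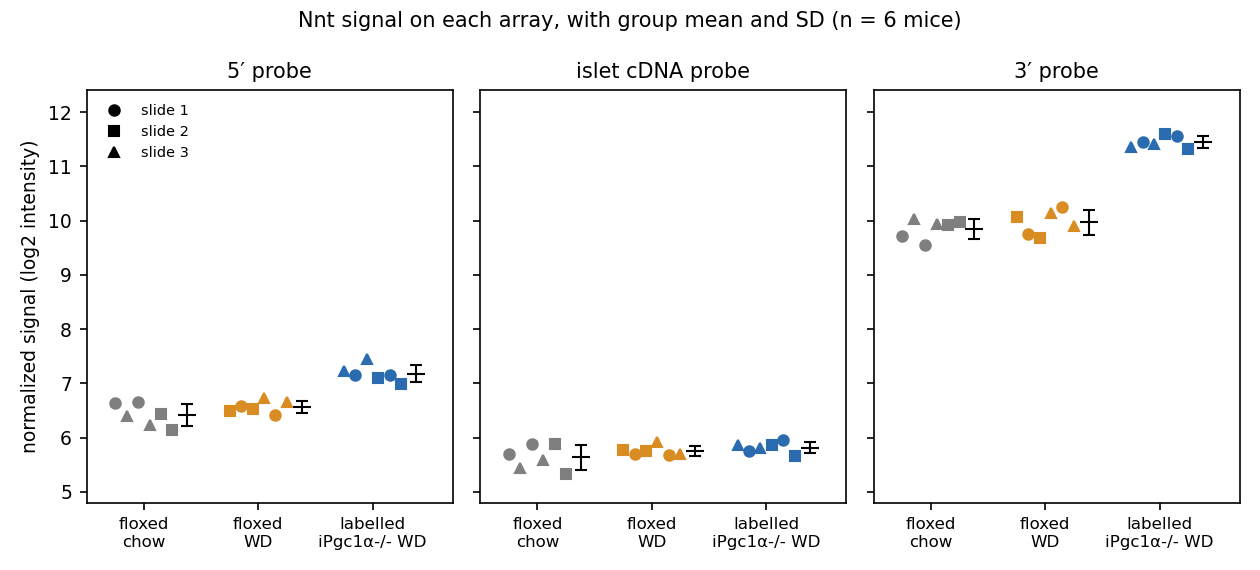
Log2 normalized signal (vertical axis) of the 3 *Nnt* probes on each of the 18 arrays, grouped by label on the horizontal axis. Points are mice, their shapes mark the slide, and bars give the group mean and SD. The 6 arrays labelled iPgc1α-/- lie apart at the 3′ probe (11.32 to 11.60, against 9.55 to 10.26 in floxed mice), less far apart at the 5′ probe, and among the others at the islet cDNA probe.

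Whether the values fell into separate clusters was read from the gaps between neighbouring arrays in rank order. At the 3′ probe the 18 values spanned 2.05 on the log2 scale, and 1.06 of that (51.8%) was a single gap between 10.26 and 11.32. The next largest gap was 0.14. The 6 arrays above the gap were those labelled iPgc1α-/-. At the 5′ probe the largest gap, 0.26 between 6.72 and 6.98, made up 19.5% of the range and fell at the same place. At the islet cDNA probe the largest gap (0.14) lay between 5.44 and 5.59, with 16 arrays above it. The 2 sets at the 3′ probe coincided with the genotype label. *Nnt* was selected on the difference between the labelled genotypes on WD. That selection favoured a gap at this boundary, so the gap is a description. Within the 12 floxed arrays the largest gap of the 3′ probe was 0.14, or 19.8% of their range. Neither the floxed mice nor the mice labelled iPgc1α-/- held an array at the level of the other set.

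A full separation of this kind was uncommon on the array. Among the 32638 probes measured on all arrays, 277 (0.849%) had no overlap between the 6 arrays labelled iPgc1α-/- and the 6 floxed arrays on WD. Against all 12 floxed arrays it was 122 (0.374%), a share that is printed as background because *Nnt* was selected on these arrays. By width of the gap, the 3′ probe of *Nnt* came 2nd of those 122, after *Mt1*, a metallothionein, with a gap of 1.84. *Cyp2a12*, a cytochrome P450 gene, followed with 1.05. The 5′ probe came 14th. These ranks are descriptions as well, since a gene selected on these arrays ranks high through the selection.

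The diet difference was tested, although it shares the 6 floxed arrays on WD with the contrast that *Nnt* was selected on, so that the selection favoured low values in these arrays. In floxed mice, *Nnt* did not pass the threshold between chow and WD at any probe. The 3′ probe was higher on WD by 0.11 (standard error 0.10, 95% confidence interval -0.11 to 0.33, Benjamini-Hochberg adjusted p = 0.456 over all probes in limma). The 5′ probe differed by 0.15 (95% confidence interval -0.05 to 0.36, adjusted p = 0.276 from the same limma model) and the islet cDNA probe by 0.12 (95% confidence interval -0.08 to 0.32, adjusted p = 0.377). Two-sided exact permutation tests over the 924 divisions of the 12 floxed arrays gave p = 0.353, 0.149 and 0.268, each 0.353 after Benjamini-Hochberg adjustment over the 3 probes. For the whole array, 1959 of 21542 genes (9.09%) were called for diet, which required an adjusted p no higher than 0.05 and a change of more than 1.5-fold, and at 3096 probes (9.49%) the 6 arrays of each diet did not overlap. The upper limit of 0.33 at the 3′ probe makes no allowance for the selection of *Nnt*, and the intervals do not show that the diets were alike. Against floxed mice on chow, which share the arrays labelled iPgc1α-/- with the genotype comparison, the 3′ probe was higher by 1.60, the 5′ probe by 0.76 and the islet cDNA probe by 0.18.

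The genotype difference of the 3′ and 5′ probes is given by slide for its size only. Its sign was fixed, because every array labelled iPgc1α-/- lay above every floxed array at these probes. Within slides 1, 2 and 3, each with 2 arrays per group, the 3′ probe was higher in the arrays labelled iPgc1α-/- than in floxed mice on WD by 1.49, 1.59 and 1.37. The 5′ probe was higher by 0.65, 0.53 and 0.65. The islet cDNA probe differed by 0.17, -0.01 and 0.02. The diet difference of the 3′ probe was 0.38, -0.07 and 0.04 on the same slides, with no shared sign.

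The size of the 5′ difference depended on how background was treated, and that of the 3′ probe moved less. With the background-subtracted signal, the 5′ probe differed between the labelled genotypes on WD by 0.77, and with normexp correction and an offset of 50 by 0.46. On the same scales the 3′ probe gave 1.49 and 1.44 and the islet cDNA probe 0.10 and 0.03. The same contrast fitted on the deposited log2 table gave 1.47 for the 3′ probe, 0.60 for the 5′ probe and 0.05 for the islet cDNA probe.

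**Figure D2:**
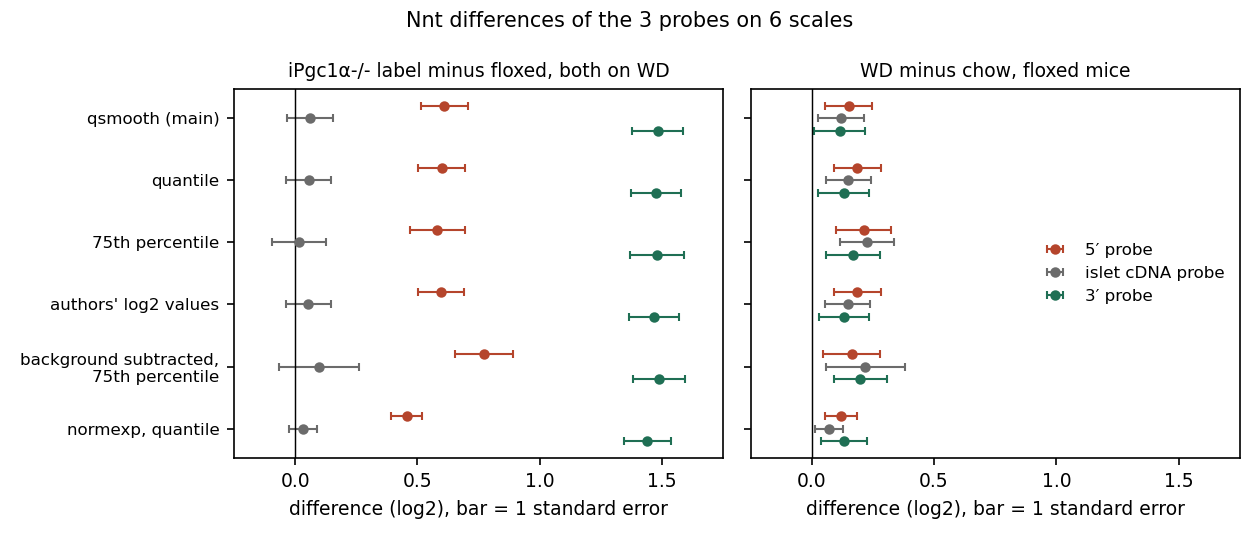
Log2 difference of each *Nnt* probe (horizontal axis, bars of 1 standard error) on 6 scales of the same 18 arrays (rows), for the labelled genotypes on WD at the left and the diets in floxed mice at the right. The 3′ probe stays between 1.44 and 1.49 and the 5′ probe between 0.46 and 0.77 by genotype, while the diet differences of all 3 probes lie between 0.07 and 0.22.

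Since the probes lie along 1 gene, the difference between their log2 signals within each array was compared between groups. Only its change between groups is read, because probes differ in brightness for reasons of their own sequence. The 3′ signal minus the 5′ signal was 3.43 ± 0.37 in floxed mice on chow, 3.40 ± 0.27 in those on WD and 4.27 ± 0.20 in the iPgc1α-/- labelled arrays (SD over 6 mice). The latter ranged from 3.96 to 4.50 and did not overlap with 3.14 to 3.83 in floxed mice on WD. On the background-subtracted scale they overlapped, from 4.25 to 4.90 against values of up to 4.36 in floxed mice on WD. The probes thus did not move by the same amount between the labelled genotypes: the 3′ probe rose by 0.87 more than the 5′ probe and by 1.42 more than the islet cDNA probe, given as a description. The first of these values was 0.72 with background subtracted. Between the diets the 3′ minus 5′ value changed by -0.04 (two-sided exact permutation test, p = 0.840, and 0.987 after Benjamini-Hochberg adjustment over 3 probe pairs). The other pairs changed by -0.01 and -0.03 between the diets, with adjusted p = 0.987 in the same exact tests. The 5′ and islet cDNA probes were the ones closer to background, and beyond the background-subtracted value the part of this in the unequal change was not tested.

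**Figure D3:**
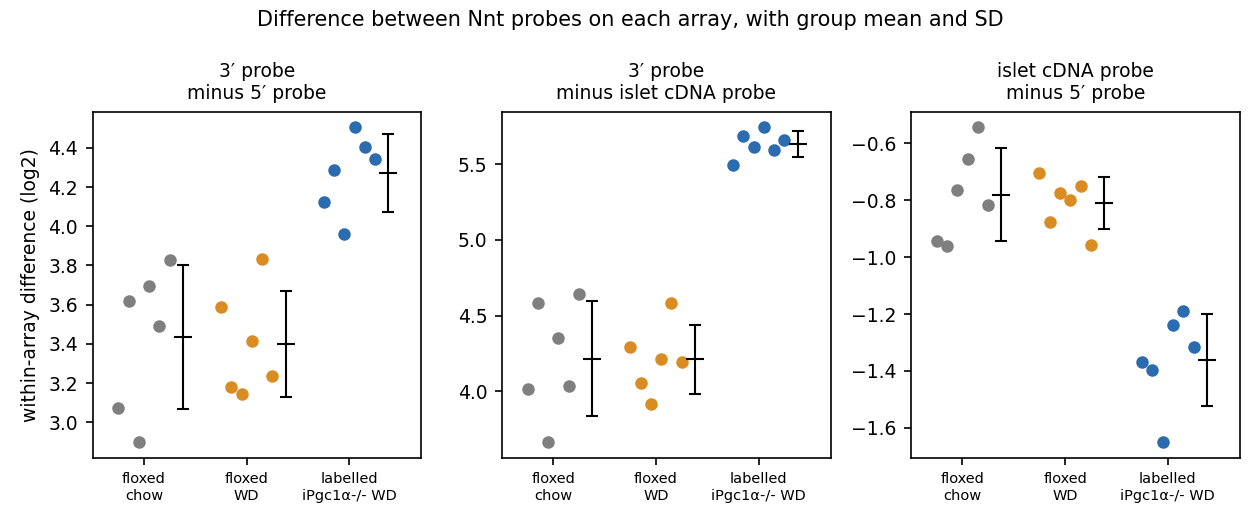
Within-array difference of log2 signals between each pair of *Nnt* probes (vertical axes, each with its own range) by group (horizontal axis). Points are mice and bars give mean and SD. The arrays labelled iPgc1α-/- stand apart in all 3 pairs on this normalized scale (the first pair overlapped with floxed mice on WD once background was subtracted), at 3.96 to 4.50 for the 3′ minus the 5′ probe, and the floxed mice on chow and WD overlap.

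The genes beside *Nnt* were then read, to ask whether its difference between the labelled genotypes extended along the chromosome. Within 5 Mb of the *Nnt* probes, 21 other genes were measured, 17 beyond the 3′ probe and 4 beyond the 5′ probe, which lies near the end of the chromosome. None of the 21 was called between the labelled genotypes on WD (smallest Benjamini-Hochberg adjusted p = 0.519 in limma), and 0 of them had an unadjusted p under 0.05, against 2804 of all 21542 genes. The array as a whole had 35 genes called for genotype (0.162%), so a list of 21 genes would hold a call only rarely. Their differences ran from -0.66 at *Itga1*, an integrin subunit, to 0.20, with a median of -0.02 beside 0.01 for all genes.

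The nearest gene, *Paip1*, which encodes a partner of the poly(A)-binding protein, lies 0.0461 Mb beyond the 5′ probe and differed by -0.01 (standard error 0.08). The next on that side were *4833420G17Rik* at 0.00, *3110070M22Rik* at -0.21 (standard error 0.11) and *Gm7120*, now named *Tmem267*, at -0.25 (standard error 0.16). Genes close to *Nnt* beyond the 3′ probe were *Gm10732* (0.732 Mb away, 0.20), *Mrps30*, a subunit of the mitochondrial ribosome (0.955 Mb, 0.00), *Emb*, a chaperone of monocarboxylate transporters (2.06 Mb, -0.10), and *Gm35144* (2.11 Mb, 0.09). None of these came near the difference of the 3′ probe.

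A set of 5 genes that mm9 leaves on an unplaced contig of chromosome 13 is put beyond the 5′ end of *Nnt* by RefSeq's GRCm38.p6 table, and 4 of them were measured. *Hmgcs1*, the cytosolic HMG-CoA synthase of cholesterol synthesis, differed between the labelled genotypes by -0.19 (standard error 0.17, limma, Benjamini-Hochberg adjusted p = 0.735). *Ccl28*, an epithelial chemokine, differed by 0.04 (standard error 0.13), *Nim1k*, a kinase gene, by 0.06 (standard error 0.10) and *Zfp131*, a zinc-finger gene, by 0.00 (standard error 0.09). A dimmer probe of *Ccl28* had an unadjusted p under 0.05 (Benjamini-Hochberg adjusted p = 0.461 in limma). Both *Hmgcs1* and *Ccl28* fell on WD in floxed mice, with log2 differences of -1.66 and -1.63 (adjusted p = 1.05e-06 and 5.7e-08 in limma), with no overlap between the diets.

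Diet called 4 of the 21 genes within 5 Mb, against 9.09% of all genes. *Gm10732* rose by 0.61 (limma, Benjamini-Hochberg adjusted p = 0.000845). *Emb* fell by 1.08 (adjusted p = 1.19e-05), *Parp8*, an ADP-ribosyltransferase gene, by 0.68 (adjusted p = 5.05e-05) and *5930433N17Rik* by 0.74 (adjusted p = 0.000604), all in the same limma model. Of the 839 genes tested on the whole of chromosome 13, *Nnt*, which was selected on this contrast, aside, *Cdkal1* and *Hist1h1e* were called for genotype (0.162% of all genes on the array were). They lie at 90.7 and 96.4 Mb from *Nnt*, with log2 differences of 1.26 and -0.63.

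**Figure D4:**
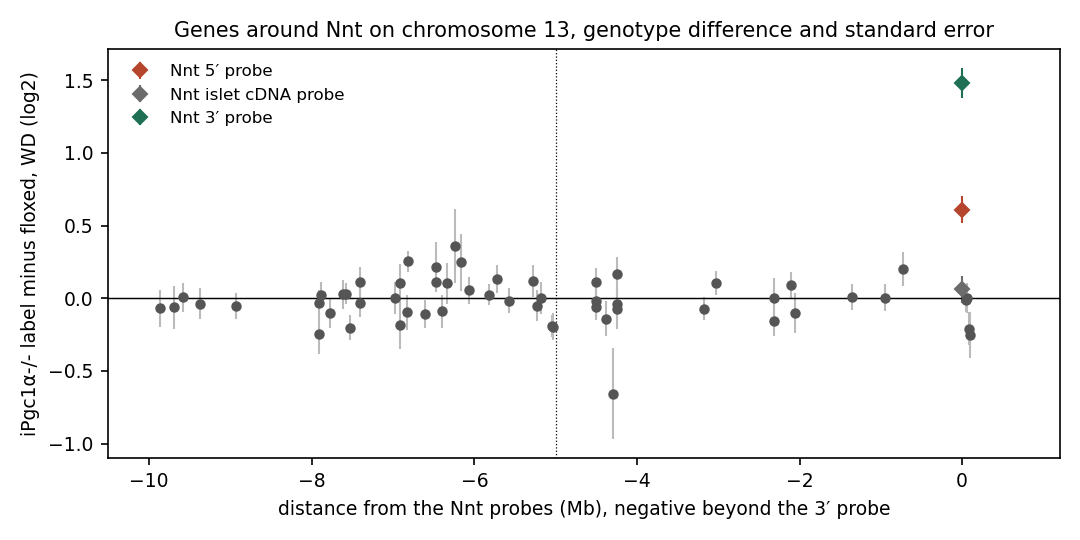
Log2 difference between the labelled genotypes on WD (vertical axis, bars of 1 standard error) for the 56 genes measured within 10 Mb of *Nnt*, by distance in Mb (horizontal axis, negative beyond the 3′ probe), with the 3 *Nnt* probes at 0. The dotted line marks 5 Mb. The *Nnt* 3′ probe at 1.48 and 5′ probe at 0.61 stand above the 21 genes within 5 Mb, which lie between -0.66 and 0.20.

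A list of 11 genes known to differ in sequence or expression among C57BL substrains or in a further inbred strain was read in the same way, and 9 of them were measured, while *Crb1* and *Mmrn1* were below the filter. None was called between the labelled genotypes (smallest Benjamini-Hochberg adjusted p = 0.403 in limma, 1 gene at an unadjusted p under 0.05 against 2804 of all 21542 genes). With 0.162% of all genes called, a list of 9 would rarely hold a call, so this count says little about the background of the mice. The median difference of the list was 0.00. *Gabra2*, a GABA receptor subunit known for an intronic deletion in C57BL/6J, showed the widest difference at -0.63 (standard error 0.23, adjusted p = 0.403). Sequence itself is not read by these arrays.

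By diet, 3 of the 9 measured genes of that list were called (33.3%, against 9.09% of all genes), all lower on WD. *Cyfip2*, a subunit of the WAVE actin complex, fell by 1.34, *Dock2*, a guanine nucleotide exchange factor of leukocytes, by 1.09, and *Casp4*, an inflammatory caspase, by 1.72 (limma, Benjamini-Hochberg adjusted p = 6.86e-06, 8.41e-05 and 6.12e-07). Leukocyte markers moved with the diet as well. The 3 T cell markers (*Cd3e*, *Cd8a* and *Gzma*) were all called for diet, and the log2 of their summed signal was 13.4 to 15.3 in floxed mice on chow, 12.23 to 12.99 on 5 floxed arrays on WD and 12.5 to 13.3 in the arrays labelled iPgc1α-/-. Their part in these falls was not tested. Between the labelled genotypes, 0 of 33 measured markers of 11 cell types were called (smallest adjusted p = 0.426 in limma). With 0.162% of all genes called, a list of 33 would rarely hold a call, so this count says little about the share of cell types. The summed enterocyte markers lay at 18.50 to 18.96 in floxed mice on WD and at 18.59 to 18.98 in the arrays labelled iPgc1α-/-.

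Genes of NADPH supply and of thiol and peroxide defence were read next, as a list of 31 genes called the NADPH genes here. The name does not mean that every product makes or uses NADPH. Of the list, 30 genes were measured and *Aldh1l2* was below the filter. Between the labelled genotypes on WD 1 of the 30 was called (0.162% of all genes were), with 8 at an unadjusted p under 0.05 (2804 of all 21542 genes were), and the median difference was 0.01, as for all genes. This was *Me3*, the mitochondrial NADP-dependent malic enzyme. Its signal ranged from 7.37 to 8.01 in floxed mice on chow (median 7.71), from 8.04 to 8.54 on WD (median 8.42) and from 7.33 to 8.21 in the arrays labelled iPgc1α-/- (median 7.70). It rose with WD in floxed mice by 0.69 (adjusted p = 0.000703) and was lower in the arrays labelled iPgc1α-/- by a log2 difference of -0.70 (standard error 0.13, limma, Benjamini-Hochberg adjusted p = 0.0243), with overlap between the genotypes. A second, dimmer probe of *Me3* differed by -0.24 (adjusted p = 0.569 in limma). The call for *Me3* was lost, leaving 0 of 30, without floxed WD replicate 1, 2, 3, 4 or 6 and without iPgc1α-/- replicate 2, 3, 4 or 5.

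The other mitochondrial sources of NADPH differed less between the labelled genotypes. *Idh2*, the NADP-dependent isocitrate dehydrogenase of the matrix, was at 12.6 ± 0.30, 12.5 ± 0.18 and 12.2 ± 0.13 in the 3 groups (SD, n = 6 each), a genotype difference of -0.29 (adjusted p = 0.456 in limma with Benjamini-Hochberg adjustment). *Glud1*, glutamate dehydrogenase, differed by 0.23 and *Me2*, a malic enzyme, by 0.14, neither past the threshold. Among the sources outside the matrix, *Aldh1l1*, which oxidises formyl-tetrahydrofolate with release of NADPH, lay at 13.6 to 13.9 in floxed mice on WD and at 13.1 to 13.5 in the arrays labelled iPgc1α-/-. Those groups did not overlap, but the difference of -0.43 did not pass (adjusted p = 0.0648 in limma). *Pgd* and *Nadk* differed by 0.06 and 0.01. In the thiol and peroxide defence, *Glrx2*, *Prdx5* and *Gpx4* differed by 0.01, 0.01 and 0.11, and 0 of 15 genes were called.

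By diet, 11 of the 30 NADPH genes were called in floxed mice (36.7%, against 9.09% of all genes), 9 higher and 2 lower on WD, with a list median of 0.16 beside 0.00 for all genes. Markers of cell types moved with the diet too: 12 of the 33 measured markers were called, all lower on WD, among them *Muc2* and *Fcgbp* of goblet cells, *Chga* of enteroendocrine cells and the T cell markers, and their part in the list's change was not tested. Among the mitochondrial sources *Me3* rose, *Glud1* rose by 0.84, and *Mthfd2*, a folate enzyme of the matrix, fell by 0.98. Of the other sources, *Me1*, the cytosolic malic enzyme, rose by 1.94, *Idh1*, the cytosolic isocitrate dehydrogenase, by 1.18 and *Nadk*, the NAD kinase, at 1 of its probes, while *H6pd*, the hexose-6-phosphate dehydrogenase of the endoplasmic reticulum, fell by 0.68. In the defence group *Cat*, catalase, rose by 0.93, *Gpx4*, the lipid peroxide-reducing glutathione peroxidase, by 0.79, and *Gclc* and *Gclm*, the subunits of the glutathione synthesis enzyme, by 0.90 and 0.78. Adjusted p values of these genes in limma with Benjamini-Hochberg adjustment lay at or below 0.00211. *Nnt* itself did not pass for diet, as given above.

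**Figure D5:**
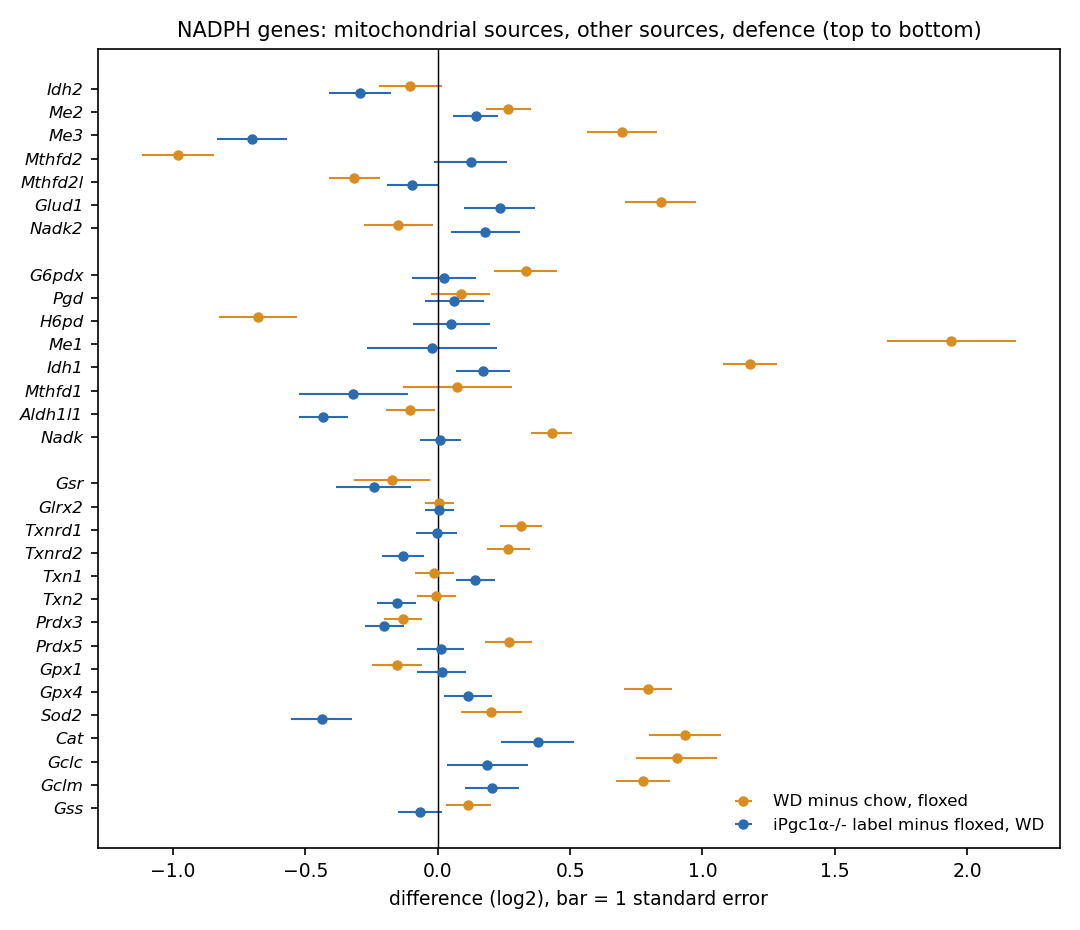
Log2 difference (horizontal axis, bars of 1 standard error) of the 30 measured NADPH genes (rows, by brightest probe, in 3 blocks) between the diets in floxed mice and between the labelled genotypes on WD. *Me1* at 1.94 and *Idh1* at 1.18 lead the diet differences, and *Me3* at -0.70 is the called gene by genotype.

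The genes whose brightest probe followed the 3′ probe of *Nnt* most closely over the 18 arrays were *Cyp2a12* (Pearson r = 0.943), *Abhd17a* (0.892), *Cox6b2* (0.869), *Gm15446* (0.863), *Hist1h2bb* (0.861), *Hist1h2ba* (0.860), *Gdpd3* (0.856), *Hist1h2bm* (0.855), *Sco2* (0.847) and *Tymp* (0.845). The lowest r belonged to *5330426L24Rik* (-0.886), *Mtx2* (-0.882) and *Hist1h1e* (-0.869). These r are descriptions of arrays that share slides and fall into the same 2 sets by label, and 5 of the 10 genes were themselves called for genotype. Within the 12 floxed arrays the r of the 10 genes ran from 0.04 at *Tymp* to 0.64 at *Gdpd3*, and within the 6 arrays labelled iPgc1α-/- from -0.46 at *Cox6b2* to 0.50 at *Gm15446*. For *Cyp2a12* it was 0.28 among the floxed arrays. For each of the 10 genes, r was lower within either set than over all 18 arrays.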

How the data were processed

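Gene expression in ileum cells of 18 mice was measured with one-colour Agilent arrays (SurePrint G3 Mouse GE v2). The authors deposited the spot intensity values of Agilent Feature Extraction 10.10.1.1, with no scaling between arrays, and a table of log2 values normalized by them, whose correction for washing bath and labelling could not be repeated, since those batches are not in the labels used here. Groups and replicate numbers came from the labels. Control and outlier spots were left out, and spots of a probe were averaged. A probe was kept when 5 or more of the 6 arrays of some group read it well above background. Median signals were put on the log2 scale and normalized by qsmooth as rewritten for R 4.3.3 (window 0.05). The limma 3.58.1 model of the 3 groups used Benjamini-Hochberg adjustment over 32726 probes. A gene was called when any probe reached an adjusted p of at most 0.05 with a change of more than 1.5-fold, and is shown by its brightest probe. The procedure was tested on simulated data. Plots were drawn with matplotlib 3.10.9.

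*Nnt*, the gene lists and the tests were chosen with earlier results of these data known. Genes named are *Nnt*, *Ppargc1a*, called genes of the NADPH and substrain lists and the 3 brightest of each NADPH block, the 5 nearest genes on each side of *Nnt* and called ones within 5 Mb, and the 10 genes most like and 3 least like the 3′ probe. *Aldh1l1*, *Gabra2*, *Itga1*, *Mt1*, *Cdkal1*, *Sod2* and the genes of the unplaced contig were named after their values were seen. The same holds for the cell markers given as the lowest and highest of their lists. Single results of some genes under this rule are not reported here. Intensity near background understates a fold change, and the number of arrays limits the precision (median standard error 0.104). The genotypes are described as littermates, but which mice shared a litter is not given, so litter did not enter the model and p-values measure the spread between these mice. Alternatives were other scalings and background corrections, filters, blocks, variance models, distance windows and each array left out.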

Additional observations from a re-analysis of the deposited data

How the results depend on the processing

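The genotype differences of the *Nnt* 3′, 5′ and islet cDNA probes were 1.44 to 1.49, 0.46 to 0.77 and 0.02 to 0.10 under the alternatives. With 1 array left out they were 1.42 to 1.55, 0.56 to 0.66 and 0.01 to 0.10. The full separation of the arrays at the 3′ and 5′ probes fixed the sign there when 1 array was left out. Against floxed mice on chow the 5′ probe moved from 0.76 to 0.94 with background-subtracted signal and to 0.58 with normexp. No diet difference of *Nnt* passed the threshold under any alternative (limma adjusted p from 0.156 to 0.566, and from 0.168 to 0.836 with 1 array left out). The diet changes of the probe pairs, all within the spread, turned positive in some settings. With background-subtracted signal these were 0.057 for islet cDNA minus 5′ and 0.035 for 3′ minus 5′. With normexp they were 0.010 for 3′ minus 5′ and 0.062 for 3′ minus islet cDNA, and with the median signal at the 75th percentile 0.013 for islet cDNA minus 5′. With 1 array left out the pairs ranged from -0.070 to 0.014 (islet cDNA minus 5′), -0.14 to 0.039 (3′ minus 5′) and -0.12 to 0.078 (3′ minus islet cDNA). The count of genes called for diet was 3006 with background-subtracted signal and 5890 without a fold threshold, where genotype called 55. The neighbours called for diet numbered 1 with normexp, 2 with probes well above background on all arrays, 9 without a fold threshold, 1 within 2 Mb and 7 within 10 Mb, and the genotype count stayed at 0 in all of these. Leaving out 1 array gave 0 to 1 NADPH genes called for genotype. The cause of these shifts was not tested. Mice with the same replicate number had correlations of deviations from -0.217 to 0.346, above 0.1 in 9 of 18 pairs. Mice with unlike numbers are not set beside them here, so these values do not settle whether the numbers pair the mice. With the replicate block the genotype difference of the 3′ probe was 1.48, the NADPH calls for diet 11 and the genes called for genotype 31.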
